A study of Mus musculus with 28 samples.

Results

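Igf2bp1, Igf2bp2, Igf2bp3, Lin28b, Hmga2 and Arid3a, 6 genes known for their RNA in fetal blood cells, were followed by name through mouse leukaemia models. They are 6 of the 35267 genes listed in the count table of c-Kit+ cells and of the 35429 in the table of transformed lines. The series of 28 samples addressed the retinal determination gene network, to which the phosphatase and coactivator EYA1 belongs, in acute myeloid leukaemia. The data used here are 18 bulk RNA libraries, single-cell RNA and chromatin binding of a fusion oncoprotein.

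All cells came from C57Bl/6 bone marrow and were enriched for c-Kit, a receptor of haematopoietic stem and progenitor cells (HSPCs). MOZ-TIF2 cells (n = 2) were HSPCs that carried a retrovirus for Ty1-tagged MOZ-TIF2, a fusion of 2 chromatin regulators found in leukaemia, sorted for GFP and kept 4 days in cytokine medium. Differentiated cells (n = 2) went through the same steps with an empty vector, and fresh cells (n = 2) were taken as isolated. The EYA1_HOXA9 line carried EYA1 with the homeobox factor HOXA9 and was sorted for GFP and dTomato, and the HOXA9 line carried HOXA9 alone and was sorted for GFP. Both lines went through 4 rounds of replating in methylcellulose and then received for 72 h either 5 µM benzarone, an inhibitor of EYA phosphatases, or its solvent DMSO (n = 3 in each of the 4 groups). Single cells came from the MOZ-TIF2 line under benzarone or DMSO, and the benzarone dose is listed as 5 µM for days 1 and 3. Each model is 1 transformed line driven from a viral vector, and nothing in the labels says that replicates were separate cultures or animals, so p-values measure only the spread between these samples, which may be technical.

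The IGF2BP proteins bind messenger RNAs, many of them marked by m6A, and protect them from decay or steer their translation. LIN28B blocks the maturation of let-7 microRNAs, and the messengers of Hmga2, of the Igf2bp genes and of Arid3a are known let-7 targets. In mouse blood formation LIN28B is known as a switch of fetal progenitors, acting through HMGA2, a chromatin-bending protein of self-renewal, through IGF2BP3 and, in B cell precursors, through the transcription factor ARID3A.

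The let-7 family is shown because LIN28B blocks it and its seed, the stretch of bases 2 to 8, pairs with target messengers such as those of the other members. Capitals mark the seed in these mature sequences (RefSeq, GRCm38.p6), written 5′ to 3′.
mmu-let-7a-5p: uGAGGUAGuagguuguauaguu
mmu-let-7b-5p: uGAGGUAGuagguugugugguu
mmu-let-7g-5p: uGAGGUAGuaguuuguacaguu
mmu-miR-98-5p: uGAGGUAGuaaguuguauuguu
Of 11 mature let-7 and miR-98 names in the table, 10 carry this seed. The bulk libraries were made from poly(A) RNA, and mature let-7 was not measured in them.

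The promoters of Igf2bp3 and Hmga2 are shown because Ty1 peaks covered both, as described with the binding data. Each runs from 250 bases before to 50 bases after the start site (RefSeq, GRCm38.p6, minus strand, written 5′ to 3′ along the gene), and capitals mark motif matches.
Igf2bp3, chr6:49214905-49215204: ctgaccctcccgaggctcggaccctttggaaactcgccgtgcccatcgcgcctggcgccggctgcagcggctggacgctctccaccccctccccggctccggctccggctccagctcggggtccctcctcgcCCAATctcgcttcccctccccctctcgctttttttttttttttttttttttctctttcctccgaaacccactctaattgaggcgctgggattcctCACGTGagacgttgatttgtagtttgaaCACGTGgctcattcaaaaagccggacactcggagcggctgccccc
Hmga2, chr10:120476420-120476719: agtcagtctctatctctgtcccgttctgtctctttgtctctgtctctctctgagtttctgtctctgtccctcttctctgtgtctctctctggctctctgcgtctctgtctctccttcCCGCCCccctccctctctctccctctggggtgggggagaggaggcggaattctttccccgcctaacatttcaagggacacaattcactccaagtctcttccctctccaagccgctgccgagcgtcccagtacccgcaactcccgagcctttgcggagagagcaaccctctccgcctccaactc
The Igf2bp3 window held 25 CpG dinucleotides, more than 81.6% of 32851 mouse promoters, against 12 in the Hmga2 window (more than 60.4%). The motifs searched on both strands were the RUNX core TGTGGT, the GC box GGGCGG, the CCAAT box CCAAT, the E-box CACGTG, the TATA box TATAAA and the HOX-PBX motif TGATNNAT. The Igf2bp3 window held the E-box, a motif of 7.15% of all promoters, at -23 and +6 from the start site, and CCAAT (37.4% of promoters) at -118. The Hmga2 window held 1 match, a GC box on the opposite strand at -133 (35.7% of promoters). The other motifs were not found in these windows, at 16.8% (TGTGGT), 13.6% (TATAAA) and 8.85% (TGATNNAT) of all promoters. Promoter sequences were matched for 4 of the 6 genes, the other 2 being Igf2bp2 and Lin28b, which were not covered by peaks.

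Library totals were 33010700 to 34463851 counts for MOZ-TIF2, 23656631 to 34260108 for differentiated and 12397486 to 15550960 for fresh cells, and 26340517 to 34606046 in the lines. Eya1 checked the line labels, at a normalised read count (CPM, the count scaled to library size) of 134 to 276 over the 6 EYA1_HOXA9 libraries and 0 to 0.0329 CPM over the 6 HOXA9 libraries. The 10 mast cell markers summed to 39.8 to 54.8 CPM in MOZ-TIF2, 58430 to 86890 in differentiated and 334 to 366 in fresh cells, so the differentiated cells carried mast cell RNA. The 6 granulocyte progenitor markers summed to 8910 to 14733 CPM in MOZ-TIF2, 34.9 to 242 in differentiated and 6594 to 9072 in fresh cells. The 7 erythroid markers summed to 4.51 to 4.93 CPM in MOZ-TIF2, 59.2 to 71.7 in differentiated and 3897 to 4630 in fresh cells, and 6 B cell markers to 5.13 to 5.27 CPM in MOZ-TIF2, 0.430 to 1.18 in differentiated and 492 to 548 in fresh cells. These groups thus differ in cell types, whose part in the results below was not tested, and in bulk RNA fewer cells of a type and less RNA per cell cannot be told apart.

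Against fresh cells, Igf2bp3 was the 1 gene of the IGF2BP family called in MOZ-TIF2 cells. Igf2bp3 read 188 and 160 CPM in the 2 MOZ-TIF2 libraries, against 2.07 and 5.01 CPM in fresh cells. Both MOZ-TIF2 values lie far above both fresh values, and the log2 difference was 5.60 (SE 0.91, 95% interval 3.40 to 7.80, edgeR adjusted p = 0.0111). Igf2bp1 read 0.683 and 0.671 CPM in MOZ-TIF2 cells, from 25 and 23 counts, against 0 and 2 counts in fresh cells. The groups did not overlap, the ratio of summed counts was 10.4 (counting interval 2.73 to 88.4) and the test did not pass (edgeR adjusted p = 0.0895). Igf2bp2 lay the other way, at 1.07 and 0.642 CPM in MOZ-TIF2 cells against 3.17 and 2.44 CPM in fresh cells. Its groups did not overlap either, and the log2 difference of -1.71 (SE 0.56) missed the threshold with edgeR (adjusted p = 0.0725) and passed with DESeq2 (adjusted p = 0.0210). Intervals and floors on counts cover counting error only.

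Lin28b, the let-7 blocker, was read only in MOZ-TIF2 cells of this set. It had 12 and 13 counts in the MOZ-TIF2 libraries, 0.328 and 0.379 CPM, against 0 in both fresh and both differentiated libraries. With the undetected groups set to the floor, 3 counts summed over the group, this is 3.61-fold the floor in fresh and 5.86-fold that in differentiated cells. The lower counting limits of the ratios of summed counts were 2.73 and 4.42. Lin28b fell under the filter on low counts, and without that filter edgeR gave adjusted p = 0.0981 against fresh and 0.0586 against differentiated cells. In a fit of MOZ-TIF2 and differentiated cells alone Lin28b passed the filter and was called (log2 6.44, edgeR adjusted p = 0.0388). It passed through its MOZ-TIF2 counts alone, so it could only be called higher. In the other fits that held it Lin28b was not called against differentiated cells, at log2 6.18 to 6.29. Against fresh cells it was called in none of the fits that held it (edgeR adjusted p of 0.0728 to 0.283). Its paralogue Lin28a, which also blocks let-7, read 36.5 and 71.1 CPM in MOZ-TIF2, 0.0478 and 0.277 CPM in differentiated and 13.1 and 18.3 CPM in fresh cells. Lin28a was higher in MOZ-TIF2 cells by log2 1.78 over fresh (edgeR adjusted p = 0.0493) and by 8.22 over differentiated cells (adjusted p = 0.000970).

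Of the 2 nuclear factors, Arid3a rose in MOZ-TIF2 cells and Hmga2 fell relative to fresh cells. Arid3a read 197 and 320 CPM in MOZ-TIF2 cells, against 46.5 and 58.9 CPM in fresh cells. The higher and the lower MOZ-TIF2 library both lay above the fresh libraries (log2 2.29, SE 0.38, 95% interval 1.38 to 3.21, edgeR adjusted p = 0.0115). Hmga2 read 0.273 and 0.846 CPM in MOZ-TIF2 cells, from 10 and 29 counts, against 4.43 and 2.91 CPM from 60 and 50 counts in fresh cells. The groups did not overlap, and the log2 difference was -2.70 (SE 0.74, 95% interval -4.49 to -0.92, edgeR adjusted p = 0.0448). Single cells of the MOZ-TIF2 line in DMSO held Hmga2 at 4.49 CPM on day 1 and 12.9 CPM on day 5. Those levels come from another assay and were not tested against the bulk levels.

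In all, 3 of the 5 genes that passed the filter were called against fresh cells, 2 higher and 1 lower. Beside this, 23.7% of all 15224 tested genes were called. Hmga2 passed the filter through the fresh libraries alone and could only be called lower, which limits the comparison with this share. These calls rest on the fresh libraries: without fresh replicate 1 none of the 6 genes passed (Igf2bp3 log2 5.09 with adjusted p = 0.122, Arid3a 2.10 with 0.119, Hmga2 -2.41 with 0.266). Without fresh replicate 2 none passed either (Igf2bp3 6.39 with adjusted p = 0.0810, Arid3a 2.47 with 0.0843, Hmga2 -2.97 with 0.157), the lone fresh library being taken to vary like the other groups. The Hmga2 call was also lost without MOZ-TIF2 replicate 1 (-2.10, edgeR adjusted p = 0.104), without differentiated replicate 1 or 2 (-2.70 in both, adjusted p = 0.0597 and 0.0588) and with the replicate number as a block (-2.78, adjusted p = 0.0931).

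**Figure D1:**
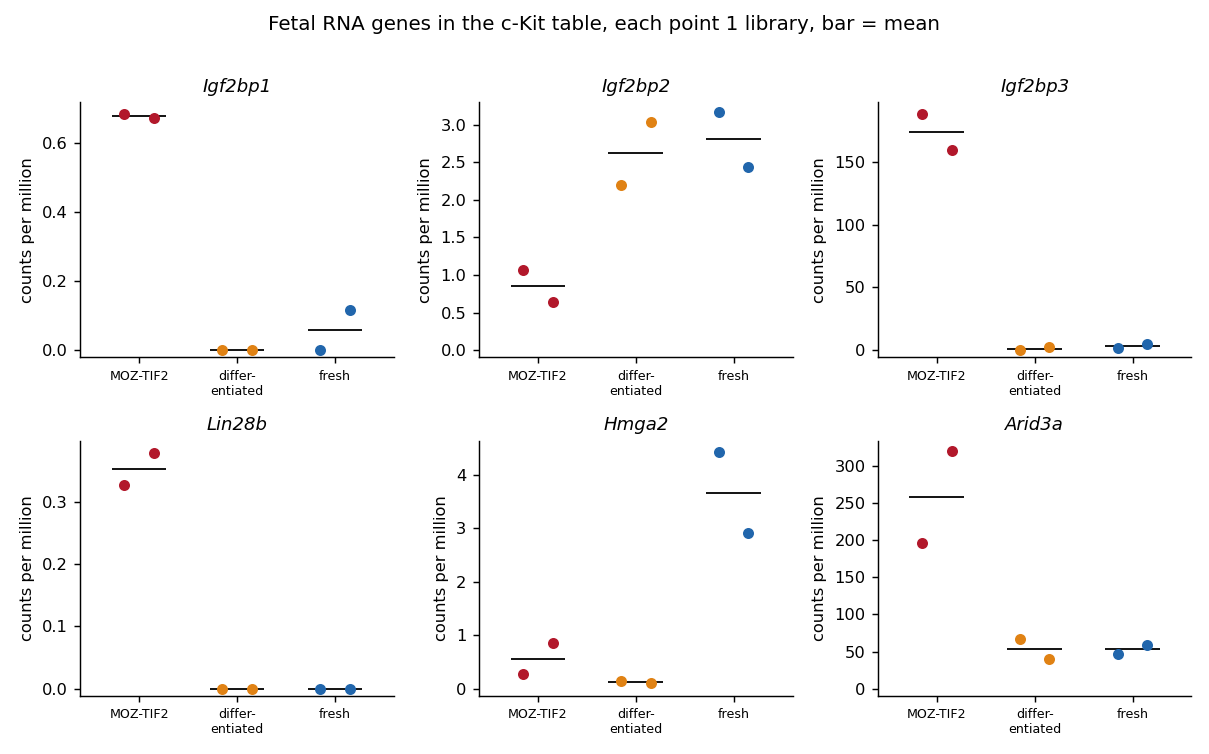
Normalised read count (CPM) of the 6 genes in each bulk library of MOZ-TIF2, differentiated and fresh c-Kit+ cells, 1 point per library (n = 2 per group). Igf2bp3 and Arid3a sit highest in MOZ-TIF2 cells, Hmga2 and Igf2bp2 lie lower there than in fresh cells, and Lin28b is above 0 only in the 2 MOZ-TIF2 libraries.

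Set against differentiated cells, Igf2bp3 and Arid3a were again higher, and Hmga2 had the opposite sign and did not pass. Igf2bp3 read 0.239 and 2.32 CPM in the differentiated libraries, below both MOZ-TIF2 values of 188 and 160 CPM (log2 7.02, SE 0.97, edgeR adjusted p = 0.00450). Arid3a read 66.9 and 39.3 CPM there, below both MOZ-TIF2 values of 197 and 320 CPM (log2 2.28, SE 0.38, edgeR adjusted p = 0.00808). Igf2bp1 had no count in the differentiated libraries, and its MOZ-TIF2 level was 11.3-fold the floor there (lower counting limit of the ratio 8.80, edgeR adjusted p = 0.0244). That call was lost in DESeq2 (adjusted p = 0.0565), with the replicate number as a block (0.0657) and without any 1 of the 6 libraries (adjusted p of 0.0551 to 0.0838). Hmga2 had 10 and 29 counts in MOZ-TIF2 cells against 3 and 3 in differentiated cells, a log2 difference of 2.15 that did not pass (edgeR adjusted p = 0.0949). Igf2bp2 read 1.07 and 0.642 CPM in MOZ-TIF2 cells against 2.20 and 3.04 CPM in differentiated cells, which did not overlap (-1.61, edgeR adjusted p = 0.0736, DESeq2 adjusted p = 0.0262). Thus 3 of 5 genes were called, all higher, beside 29.5% of all tested genes called and 13.3% called higher. Igf2bp1 had 0 to 2 counts in every fresh and differentiated library. It passed the filter through MOZ-TIF2 cells alone and could only be called higher, which limits the comparison with these shares. Both comparisons share the MOZ-TIF2 libraries.

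Differentiated and fresh cells differ in the empty vector, sorting, culture and cell types together, and the part of each was not tested. Between them Hmga2 was lower in differentiated cells. It read 0.143 and 0.104 CPM in differentiated cells against 4.43 and 2.91 CPM in fresh cells, with no overlap (log2 -4.85, SE 0.85, edgeR adjusted p = 0.00837). It was the 1 gene called of 5 (40.7% of all tested genes were called and 19.7% were lower). Hmga2 passed the filter through the fresh libraries alone, with 60 and 50 counts, so it could only be called lower here. The call was lost without fresh replicate 1 (-4.53, edgeR adjusted p = 0.0690) or replicate 2 (-5.12, adjusted p = 0.0513). Igf2bp3 gave -1.42 (edgeR adjusted p = 0.219) and passed without differentiated replicate 2, the higher of its 2 libraries (-3.87, adjusted p = 0.0238). Arid3a (0.01, edgeR adjusted p = 0.986) and Igf2bp2 (-0.10, adjusted p = 0.901) differed by less than the spread between replicates.

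The Igf2bp3 locus spans chr6:49085218-49215469 (GRCm38) and overlaps 3 other annotated genes, whose reads could be mixed with its own if strand was not used in counting, a setting not given in the sources used here. Malsu1, a mitochondrial ribosome assembly factor within that span, read 9.23 and 9.07 CPM in MOZ-TIF2, 6.31 and 7.19 in differentiated and 12.1 and 11.3 CPM in fresh cells. It did not pass in MOZ-TIF2 cells against fresh (log2 -0.36, edgeR adjusted p = 0.422) or differentiated cells (0.44, adjusted p = 0.323). Gm18010, another gene of the span, had no count in any of these libraries. Arid3a and Igf2bp2 overlap no other annotated gene, and Hmga2 overlaps 5.

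In the lines, EYA1 with HOXA9 went with higher Igf2bp3 and, in DMSO, higher Igf2bp2 than HOXA9 alone. Igf2bp3 read 22.1, 14.5 and 17.7 CPM in EYA1_HOXA9 cells in DMSO, against 0.469, 0.596 and 1.40 CPM in HOXA9 cells in DMSO. Every EYA1_HOXA9 library lay above every HOXA9 library (log2 4.44, SE 0.59, edgeR adjusted p = 0.000242). Igf2bp2 read 1.58, 1.30 and 1.32 CPM in EYA1_HOXA9 cells in DMSO, against 0.195, 0.159 and 0.180 CPM in HOXA9 cells in DMSO. These also did not overlap (log2 2.94, SE 0.59, edgeR adjusted p = 0.00378), a difference of 130 against 14 counts in all. Arid3a read 119, 108 and 122 CPM in EYA1_HOXA9 cells and 85.6, 71.1 and 141 CPM in HOXA9 cells, where HOXA9 replicate 3 lay above all of them (0.23, edgeR adjusted p = 0.605). So 2 of the 3 genes that passed the filter in this table were called, both higher, beside 22.9% of 13375 tested genes called and 12.1% called higher. Igf2bp2 had 39.0 to 47 counts in EYA1_HOXA9 libraries in DMSO and 0 to 5 in every other line library. It thus passed the filter through that group alone and could only be called higher, which limits the comparison with these shares. The granulocyte progenitor markers, 3 of 6 called lower, summed to 7331 to 7831 CPM in EYA1_HOXA9 and 12454 to 14250 CPM in HOXA9 cells. Hoxa9, which both lines carry, read 314 to 507 CPM in EYA1_HOXA9 and 180 to 241 CPM in HOXA9 cells in DMSO (log2 0.92, edgeR adjusted p = 0.00477). The part of these differences in the results was not tested.

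Igf2bp1, Lin28b and Hmga2 were hardly read in these lines. Summed over the 3 libraries of a group, Igf2bp1 had 1 count in EYA1_HOXA9 cells with benzarone, 0 in DMSO, 2 in HOXA9 cells with benzarone and 0 in DMSO. Lin28b had 1 count in all, in HOXA9 cells with benzarone. Hmga2 had 2 counts in EYA1_HOXA9 cells with benzarone, 2 in DMSO, 1 in HOXA9 cells with benzarone and 4 in DMSO. No fold is given for them, since all lie at or about the floor of 3 counts over a group (0.0322 to 0.0382 CPM).

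Benzarone in EYA1_HOXA9 cells lowered Igf2bp2. It read 0.0599, 0 and 0.179 CPM with benzarone, against 1.58, 1.30 and 1.32 CPM with DMSO. The groups were far apart (log2 -4.12, SE 0.65, 95% interval -5.53 to -2.72, edgeR adjusted p = 0.000765), and 7 against 130 summed counts gave a ratio of 0.0538 (counting interval 0.0212 to 0.114). Igf2bp3 read 14.8, 6.53 and 6.05 CPM with benzarone against 22.1, 14.5 and 17.7 CPM with DMSO. Its groups overlapped, since benzarone replicate 1 lay above DMSO replicate 2 (-0.98, 95% interval -2.05 to 0.08, edgeR adjusted p = 0.154). Arid3a read 107, 81.1 and 64.7 CPM with benzarone against 119, 108 and 122 CPM with DMSO, which did not overlap but did not pass (-0.46, edgeR adjusted p = 0.284). The call of 1 in 3 stands beside 29.4% of all tested genes called and 12.4% called lower. Igf2bp2 passed the filter through this DMSO group alone, so it could only be called lower here. Of the 6 granulocyte progenitor markers 4 were lower and 1 higher with benzarone, their sum lying at 4956 to 6782 CPM against 7331 to 7831 CPM with DMSO. Of 5 macrophage markers tested 4 were higher, the whole list summing to 157 to 353 CPM with benzarone against 94.5 to 128 CPM with DMSO. Hoxa9 rose to 1238 to 1646 CPM with benzarone, against 314 to 507 CPM with DMSO (log2 1.87, edgeR adjusted p = 9.58e-05). The part of these shifts in the Igf2bp2 result was not tested.

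With benzarone present, Igf2bp3 still set the 2 lines apart. It read 14.8, 6.53 and 6.05 CPM in EYA1_HOXA9 cells against 0.227, 0.329 and 1.31 CPM in HOXA9 cells, with no overlap (log2 3.87, SE 0.59, edgeR adjusted p = 0.000507). Igf2bp2 did not pass there (-0.35, edgeR adjusted p = 0.798), at 0.0599, 0 and 0.179 CPM in EYA1_HOXA9 and 0.0974, 0.0329 and 0.164 CPM in HOXA9 cells, nor did Arid3a (-0.35, adjusted p = 0.435). This was 1 of 3 genes, higher, beside 25.3% of all tested genes called, 15.2% higher and 10.1% lower. Hoxa9 again differed, at 1238 to 1646 CPM in EYA1_HOXA9 and 197 to 221 CPM in HOXA9 cells (log2 2.73, edgeR adjusted p = 2.17e-06). Its part was not tested.

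In HOXA9 cells, which lack the EYA1 vector, none of the 3 genes passed between benzarone and DMSO, and edgeR called 0% of all tested genes. The log2 differences were -0.83 for Igf2bp2, -0.41 for Igf2bp3 and 0.12 for Arid3a (edgeR adjusted p = 1 for each). At an unadjusted p of 0.05, 232 genes passed, and DESeq2 called 14. The replicate numbers pair these libraries, and replicate 3 was the highest in both arms for Igf2bp3 (1.31 CPM with benzarone, 1.40 CPM with DMSO) and for Arid3a (157 and 141 CPM). With the replicate number as a block edgeR called 6 genes, or 20 with these 6 libraries alone.

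Whether benzarone acted differently on the lines was tested with an interaction term. Igf2bp2 passed the filter through EYA1_HOXA9 cells in DMSO alone, so its term could hardly be called positive. Its change in HOXA9 cells rests on 9 summed counts with benzarone against 14 with DMSO. For Igf2bp2 the change in EYA1_HOXA9 minus that in HOXA9 cells was -3.29 (log2, SE 1.02, 95% interval -5.52 to -1.07). It missed the threshold with edgeR (adjusted p = 0.0708), passed with DESeq2 (-3.35, adjusted p = 0.0339) and passed with edgeR without EYA1_HOXA9 benzarone replicate 3, the highest of its group (-4.50, adjusted p = 0.0265). Igf2bp3 (-0.57, edgeR adjusted p = 0.737) and Arid3a (-0.58, adjusted p = 0.467) did not pass, so 0 of 3 genes were called, beside 7.54% of all tested genes (4.71% positive, 2.83% negative), and DESeq2 called 1 of 3.

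**Figure D2:**
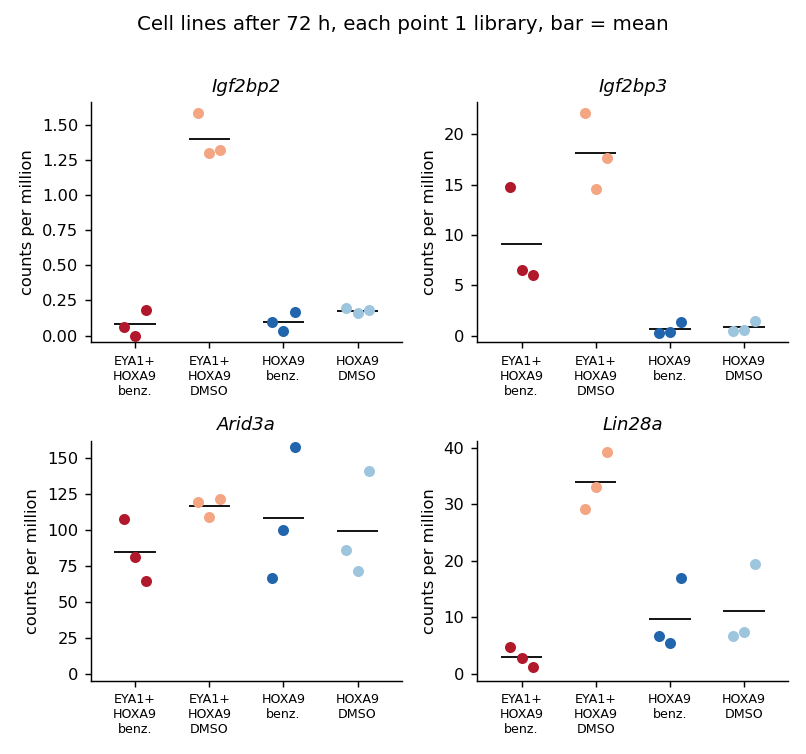
Normalised read count (CPM) of Igf2bp2, Igf2bp3, Arid3a and Lin28a in each library of the EYA1_HOXA9 and HOXA9 lines under benzarone or DMSO, 1 point per library (n = 3 per group). Igf2bp2 is near 0 in every group but EYA1_HOXA9 cells in DMSO, at 1.30 to 1.58 CPM, and Igf2bp3 is above 6 CPM only in the 6 EYA1_HOXA9 libraries.

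Lin28a, the paralogue of Lin28b, was also read in the lines and was lower with benzarone in EYA1_HOXA9 cells. It read 4.79, 2.86 and 1.25 CPM in EYA1_HOXA9 cells with benzarone against 29.2, 33.0 and 39.3 CPM with DMSO, with no overlap (log2 -3.50, edgeR adjusted p = 0.000897). In HOXA9 cells it read 6.78, 5.56 and 17.0 CPM with benzarone and 6.72, 7.39 and 19.4 CPM with DMSO, with replicate 3 again highest in both arms (-0.19, edgeR adjusted p = 1). Its interaction term was -3.31 (SE 0.75, edgeR adjusted p = 0.0217).

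**Figure D3:**
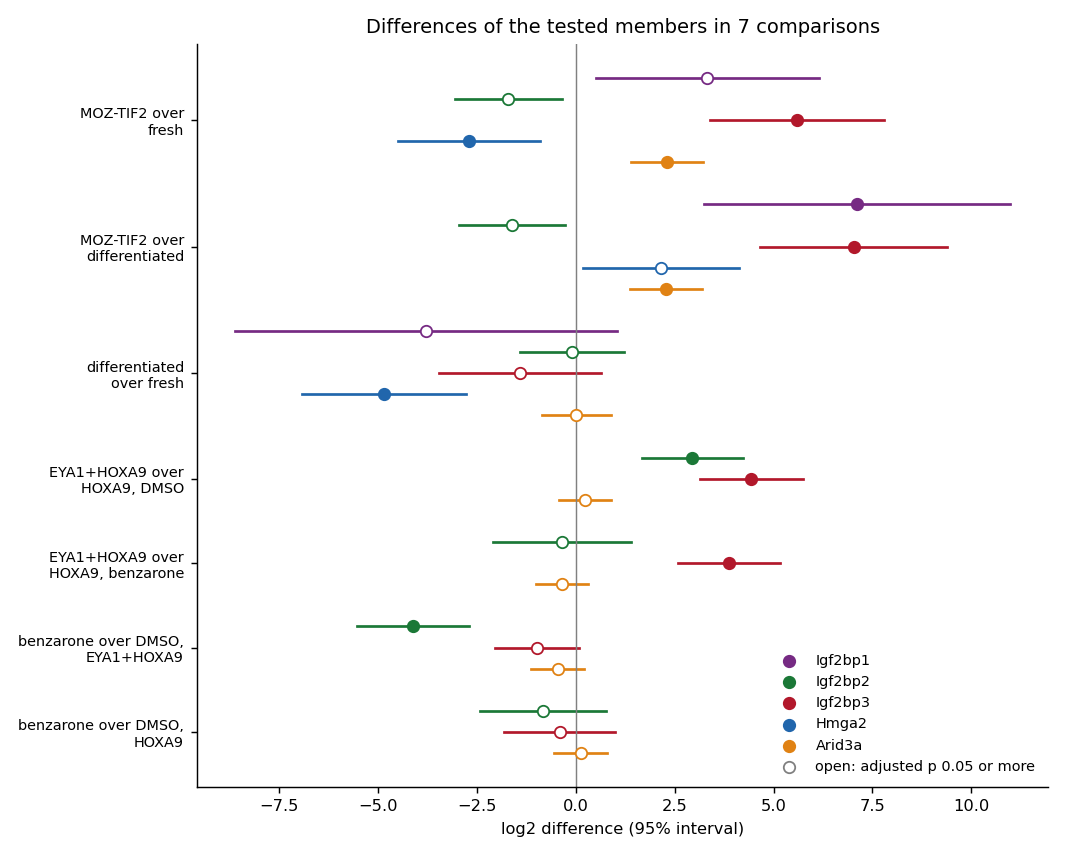
Log2 differences of the tested genes in 7 bulk comparisons, as points with 95% intervals, filled where the edgeR adjusted p was under 0.05. Igf2bp3 is filled in 4 comparisons, both of MOZ-TIF2 cells and both of the EYA1_HOXA9 line against the HOXA9 line, and the value of Igf2bp1 against differentiated cells, which had no count, depends on the prior count of the fit.

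Genes around the 6 were described by 5 lists. In MOZ-TIF2 against fresh cells, 3 of 15 tested let-7 processing genes were higher and 1 lower (median log2 -0.04, against 0.00 over all tested genes). Of all tested genes 11.3% were called higher and 12.4% lower, the shares to set beside each list of this comparison. Dicer1, the enzyme that cuts let-7 precursors, read 113 ± 9.17 against 49.0 ± 9.03 CPM (SD, n = 2 each, edgeR adjusted p = 0.0153), and Xpo5, which exports the precursors from the nucleus, 230 ± 40.2 against 109 ± 15.1 CPM (adjusted p = 0.0223). Tut4, which tails the precursor bound by LIN28, fell to 15.4 ± 4.43 CPM in MOZ-TIF2 cells, against 43.9 ± 6.57 CPM in fresh cells (edgeR adjusted p = 0.0159). Known let-7 targets other than the 6 genes went both ways, 5 of 24 higher and 5 lower (median 0.11). Hmga1, a relative of Hmga2, was higher at 1907 ± 224 against 414 ± 65.5 CPM (edgeR adjusted p = 0.00487), with near-identical copies in the genome that make its count uncertain. Ccnd1, the gene of cyclin D1, fell to 0.336 ± 0.104 CPM, against 21.3 ± 1.76 CPM in fresh cells (edgeR adjusted p = 0.00664). Mycn, a fetal and stem cell relative of Myc, had no count in bulk MOZ-TIF2 cells against 5.55 ± 1.75 CPM in fresh cells. It was read in single cells of the MOZ-TIF2 line on day 5, at 3.57 CPM in DMSO and 3.83 CPM with benzarone.

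Of 18 m6A genes 3 were higher and 0 lower in MOZ-TIF2 than in fresh cells (median 0.10). These were Rbm15 (75.0 against 25.6 CPM, edgeR adjusted p = 0.00395), Alkbh5 (218 against 78.7 CPM, adjusted p = 0.0202) and Ythdf3 (89.5 against 43.6 CPM, adjusted p = 0.0293), which belong to the m6A writer, eraser and reader groups. Of 14 insulin-like growth factor (IGF) axis genes 2 were higher and 4 lower (median -0.05). Igf1, among the lower, read 0.519 and 0.263 CPM in MOZ-TIF2 against 32.1 and 26.8 CPM in fresh cells (log2 -6.21, edgeR adjusted p = 0.0367). Igf2, the transcript after which the IGF2BP family is named, read 0.390 ± 0.397 against 0.382 ± 0.294 CPM. Of 16 fetal and adult stage genes 3 were higher and 5 lower (median -0.59). Plag1, a fetal growth factor regulator, rose to 15.0 ± 7.86 CPM in MOZ-TIF2 cells, against 1.18 ± 0.310 CPM in fresh cells (edgeR adjusted p = 0.00970). Bcl11a, which silences fetal globin, fell to 0.684 ± 0.926 CPM, against 138 ± 7.19 CPM (adjusted p = 0.00929). In DMSO single cells of the MOZ-TIF2 line Bcl11a stood at 17.8 CPM on day 1 and 20.7 CPM on day 5. All these calls share the fresh libraries, and the 3602 genes called over the whole table became 374 without fresh replicate 1 and 451 without replicate 2.

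Against differentiated cells the counts higher and lower were 2 and 2 for let-7 processing (median -0.20, against 0.03 over all tested genes), 7 and 8 for let-7 targets (0.42), 1 and 0 for m6A (0.05), 2 and 4 for the IGF axis (0.07) and 4 and 5 for the stage genes (-0.84). The shares of all tested genes called there were 13.3% higher and 16.2% lower. Xpo5 was higher at 230 ± 40.2 against 78.4 ± 1.43 CPM, and Dicer1 lower at 113 ± 9.17 against 257 ± 12.6 CPM (edgeR adjusted p = 0.00551 and 0.0116), so Dicer1 lay between its 2 comparison groups.

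Between the lines in DMSO, 3 of 15 let-7 processing genes were higher in EYA1_HOXA9 cells and 0 lower (median log2 0.21, against -0.01 over all tested genes). The other lists gave 4 and 5 of 23 let-7 targets (-0.02), 0 and 0 of 18 m6A genes (-0.02), 3 and 0 of 9 IGF axis genes (0.47) and 2 and 0 of 11 stage genes (0.09). These counts stand beside 12.1% of all tested genes called higher and 10.8% lower. Igf2r, the receptor that clears IGF2, read 249 ± 49.4 against 11.9 ± 2.56 CPM (SD, n = 3 each, edgeR adjusted p = 3.3e-07). Plag1 read 15.8 ± 2.78 against 1.31 ± 0.467 CPM between these lines (edgeR adjusted p = 2.92e-05). With benzarone the lines differed in 2 and 1 of the let-7 processing genes, 2 and 7 of the targets, 0 and 1 of the m6A genes, 4 and 0 of the IGF axis genes and 3 and 2 of the stage genes. Those counts stand beside 15.2% of all tested genes called higher and 10.1% lower.

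Benzarone in EYA1_HOXA9 cells raised 1 and lowered 1 of 15 let-7 processing genes (median -0.08, against 0.01 over all tested genes), and lowered 6 of 23 let-7 targets while raising 1 (-0.26). Of the others it raised 1 and lowered 0 m6A genes (-0.06), raised 3 and lowered 2 of the 9 IGF axis genes (-0.05) and raised 1 and lowered 5 of the 11 stage genes (-0.34). The shares of all tested genes called were 17% higher and 12.4% lower. Myc fell to 164 ± 39.6 CPM with benzarone, against 385 ± 72.8 CPM with DMSO, and Igf1r, the IGF1 receptor gene, to 79.0 ± 11.0 against 138 ± 18.4 CPM (edgeR adjusted p = 0.00113 and 0.0262). Plag1 fell to 3.36 ± 0.961 CPM with benzarone, against 15.8 ± 2.78 CPM with DMSO (edgeR adjusted p = 0.000581). Igf2r rose to 678 ± 132 CPM, against 249 ± 49.4 CPM (edgeR adjusted p = 0.000608). Igf1 rose to 462 to 804 CPM, against 45.4 to 125 CPM (log2 3.04, edgeR adjusted p = 0.000217). The interaction term was called positive for 2 and negative for 1 of the IGF axis genes, and for 1 and 3 of the let-7 targets. It was called negative for 1 let-7 processing gene and 2 stage genes, beside 4.71% of all tested genes positive and 2.83% negative. Among those called were Igf2r (log2 1.79, edgeR adjusted p = 0.00740), Igf1 (2.29, adjusted p = 0.0191), Plag1 (-2.32, adjusted p = 0.0162) and Myc (-1.17, adjusted p = 0.0319). In HOXA9 cells no gene of the 5 lists was called.

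The genes whose bulk pattern was most like that of a member were taken by Pearson's r of log2 CPM, as a description. Over the 6 c-Kit libraries these were Crebzf (r = 0.994), Xpot and Sgms2 (0.993 each) for Igf2bp3, and Zbtb18 (0.992) led for Arid3a, Xndc1 (0.995) for Hmga2, Dele1 (0.994) for Igf2bp2 and Edc4 (0.992) for Igf2bp1. Over the 12 line libraries Jade2 (0.983), Pknox2 (0.982) and Brap (0.981) were most like Igf2bp3, Twnk (0.962) like Igf2bp2 and Pxn (0.973) like Arid3a. The libraries share their groups, and 10093 and 9320 genes were searched, so these values describe these libraries only.

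Single cells of the MOZ-TIF2 line had an Igf2bp3 UMI (unique transcript molecule) in 93.3% to 94.3% of cells on days 1 and 3 and in 70.3% to 82.8% on day 5. The condition sizes were 826 cells with benzarone and 883 with DMSO on day 1, 829 with benzarone on day 3, and 1496 with benzarone and 1662 with DMSO on day 5. Median UMIs per cell were 44762 and 42565 on day 1, 44743 on day 3, and 19763 and 24576 on day 5. Each condition is 1 sample, and the day 5 cells of both conditions came as 1 sample, so no test was made and ratios carry counting intervals only. The table of days 1 and 3 lists 9448 genes, Igf2bp3, Hmga2 and Arid3a among them, and that of day 5 lists 11662, all of the 6 but Lin28b. The tables share 9 cell barcodes, and no cells were grouped by type, so the background of free RNA was not measured.

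On day 1 benzarone and DMSO cells held like levels of the 3 listed genes. Igf2bp3 stood at 106 CPM with benzarone and 110 CPM with DMSO (ratio 0.962, interval 0.921 to 1.01), Hmga2 at 4.41 and 4.49 CPM (0.982, 0.789 to 1.22) and Arid3a at 31.4 and 32.0 CPM (0.981, 0.905 to 1.06). None reached a ratio of 1.5 in either direction, where 0.879% of listed genes were that much higher and 0.921% lower. On day 3 with benzarone, against day 1 with benzarone, Hmga2 stood at 3.05 against 4.41 CPM (0.692, 0.541 to 0.885), while Igf2bp3 (112 against 106 CPM, 1.06, 1.02 to 1.11) and Arid3a (34.8 against 31.4 CPM, 1.11, 1.02 to 1.20) were slightly above. Again none passed 1.5-fold (4.99% of genes higher, 0.783% lower). There were no DMSO cells of day 3 to set beside these. With benzarone, cells with at least 3 Hmga2 UMIs held 67.9% of them on day 1 and 70.2% on day 3. The counting intervals treat UMIs as independent, so those of Hmga2 are too narrow, here and on day 5.

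On day 5 Hmga2 was lower and Igf2bp2 higher with benzarone, each by more than 1.5-fold. Hmga2 stood at 1.76 CPM with benzarone, from 57 UMIs, against 12.9 CPM with DMSO, from 535 UMIs, a ratio of 0.137 (interval 0.102 to 0.180). Igf2bp2 stood at 3.28 CPM with benzarone, from 106 UMIs, against 0.723 CPM with DMSO, from 30 UMIs (ratio 4.53, 3.00 to 7.04). Igf2bp3 (86.7 against 99.3 CPM, ratio 0.873, 0.832 to 0.916), Arid3a (33.6 against 30.4 CPM, 1.10, 1.02 to 1.20) and Igf2bp1 (3.58 against 3.06 CPM, 1.17, 0.903 to 1.52) stayed within 1.5-fold. So 1 of 5 listed members was past 1.5-fold higher and 1 lower, beside 25.2% and 28.4% of all 11662 genes. The higher Igf2bp2 here and the lower Igf2bp2 of EYA1_HOXA9 cells with benzarone come from different lines, assays and times, and were not compared.

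**Figure D4:**
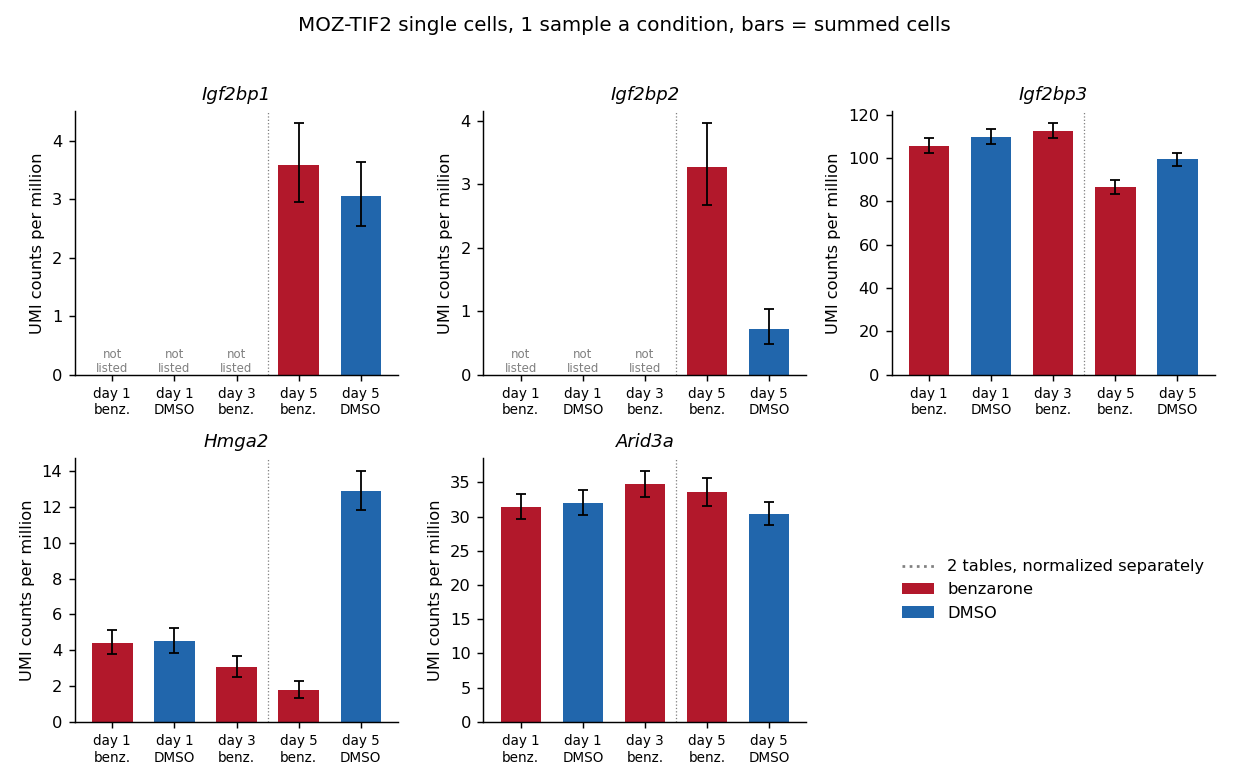
Summed level (CPM, with 95% counting intervals) of the members in single cells of the MOZ-TIF2 line under benzarone or DMSO on days 1, 3 and 5, each condition 1 sample. Hmga2 lies at 12.9 CPM in DMSO cells of day 5 and at 1.76 to 4.49 CPM in the other conditions, while Igf2bp3 keeps to 86.7 to 112 CPM.

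Other lineage RNA moved in the same day 5 cells. The 6 granulocyte progenitor markers summed to 1356 CPM with benzarone against 9147 CPM with DMSO, the 6 macrophage markers to 659 against 48.9 CPM, and the 3 listed of 5 megakaryocyte markers to 7445 against 217 CPM. On day 1 the granulocyte progenitor sum was 9728 CPM with benzarone and 8650 CPM with DMSO. The part of these markers in the Hmga2 and Igf2bp2 values was not tested.

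Cells with an Hmga2 UMI made up 2.27% of day 5 cells with benzarone and 15.0% with DMSO. With each cell thinned to 10000 UMIs, leaving out 126 benzarone and 42 DMSO cells with fewer, the shares were 1.24% and 9.75%. On day 1 they were 7.14% with benzarone and 6.80% with DMSO, or 2.66% and 3.28% when thinned, and on day 3 with benzarone 4.70%, or 1.33% when thinned. Igf2bp3 had a UMI in 93.3% and 94.3% of cells on day 1, 94.1% on day 3, and 70.3% and 82.8% on day 5, which became 57.1%, 58.9%, 56.6%, 53.3% and 57.7% when thinned. Arid3a was read in 45.1% of day 5 cells with benzarone and 50% with DMSO, or 28.6% and 26.3% when thinned, and the order turned round. Igf2bp2 was read in 2.77% of thinned day 5 cells with benzarone and 0.926% with DMSO.

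Hmga2 was concentrated in few cells. In DMSO cells of day 1, cells with at least 3 of its UMIs, 21 in number, held 71.1% of them, and in DMSO cells of day 5 such cells, 65 in number, held 55.3%. With benzarone the share was 67.9% on day 1, 70.2% on day 3 and 35.1% (4 cells) on day 5. For Igf2bp1 on day 5, with 116 and 127 UMIs, it was 2.59% with benzarone and 2.36% with DMSO. Beside this, cells with an Hmga2 UMI in day 5 DMSO held Igf2bp3 at 113 CPM against 96.9 CPM in those without, and Arid3a at 24.9 against 31.4 CPM. In day 5 benzarone cells Igf2bp3 read 100.5 against 86.3 CPM and Arid3a 36.4 against 33.5 CPM, so Arid3a had the opposite order there, within its counting interval of 25.1 to 51.2 CPM in the 34 cells with an Hmga2 UMI.

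The 3 members of the day 1 table also varied with Mpo, the myeloperoxidase gene of granulocyte progenitors. In DMSO cells of day 1 cut into 3 equal parts by Mpo from low to high, Igf2bp3 stood at 151, 94.7 and 85.8 CPM, Hmga2 at 6.83, 5.04 and 1.64 CPM and Arid3a at 40.4, 29.0 and 27.2 CPM. The day 5 DMSO cells gave the same order, with 121, 92.0 and 83.6 CPM for Igf2bp3, 18.3, 12.4 and 7.77 CPM for Hmga2 and 33.7, 30.3 and 27.2 CPM for Arid3a. With benzarone on day 1 Igf2bp3 kept that order, at 125, 107 and 86.6 CPM, while Hmga2 was highest in the middle part, at 3.35, 7.46 and 2.30 CPM. With benzarone on day 3 Igf2bp3 (118, 124 and 95.6 CPM) and Hmga2 (3.53, 3.94 and 1.72 CPM) were both highest in the middle part, and Arid3a (43.2, 32.8 and 29.2 CPM) kept the order of DMSO cells. In day 5 benzarone cells Mpo itself stood at only 0, 24.0 and 223 CPM over the 3 parts. The low and middle parts also differed in depth (medians of 16707.5 and 24056 UMIs), so no order by Mpo is drawn there. Igf2bp3 stood at 77.9 CPM (interval 72.2 to 83.8), 88.3 CPM (83.2 to 93.6) and 92.3 CPM (86.6 to 98.3), the last 2 overlapping. Arid3a was flat, at 32.8, 34.9 and 32.7 CPM.

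Of the lists on day 5, 3 of 16 let-7 processing genes were 1.5-fold higher with benzarone and 5 lower (median ratio 0.913, against 0.929 over all genes). The counts were 8 and 7 of 25 let-7 targets, 0 and 6 of 17 m6A genes, 2 and 1 of 11 IGF axis genes and 2 and 4 of 11 stage genes, beside 25.2% of all listed genes higher and 28.4% lower. Lin28a stood at 2.53 CPM in both conditions, Bcl11a at 2.47 CPM with benzarone against 20.7 CPM with DMSO, and Igfbp4, which binds IGFs, at 30.5 against 154 CPM. Igf1 lay the other way, at 6.95 CPM with benzarone, from 225 UMIs, against 0.265 CPM with DMSO, from 11 UMIs. On day 1 no list gene was 1.5-fold higher, and 1 IGF axis and 1 stage gene were lower.

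Ty1 chromatin immunoprecipitation marked where tagged MOZ-TIF2 lay in its line, as a peak list for each of 2 replicates. The lists hold 3676 and 4564 peaks, of which 3303 and 3284 overlap the other list. The label of the second replicate carries the catalogue number given elsewhere to the antibody against acetylated histone, so which antibody made the second list is uncertain. Coordinates are GRCm38 and may be off by 1 base. Within 5 kb of the gene, peaks of both lists lay at 2 of the 6 genes, Igf2bp3 and Arid3a, beside 26.2% of 14494 tested genes and 32.4% of the 5811 genes at least as long as Arid3a, the shortest member.

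At Igf2bp3 the peak lay over the start site and was broad. The first list has it at chr6:49213052-49215451, 2400 bp and wider than 95.5% of that list, and the second at chr6:49210552-49215401, 4850 bp and wider than 98.0%. Around the start site they run from -497 to 1902 and from -447 to 4402 along the gene, so both cover all 300 bases of the promoter printed above. A second pair lay 2033 bp from the gene, at chr6:49217502-49218001 in the first and chr6:49217502-49217951 in the second list. Just outside the limit, at 11067 and 10917 bp, were chr6:49073752-49074151 and chr6:49073852-49074301.

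At Arid3a (chr10:79927043-79955018) the peaks were chr10:79927352-79928101, 750 bp, in the first and chr10:79926702-79928351, 1650 bp, in the second list, at the lower end of the gene. A further peak inside the gene, chr10:79936852-79937151, was in the second list alone. The next pair lay just outside the limit, 5284 and 5334 bp from the gene.

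At Hmga2 (chr10:120361268-120476469) a peak of 1700 bp over the start site, chr10:120475252-120476951, was in the first list alone. It runs from -482 to 1217 and covers the promoter printed above. Hmga2 RNA was lower in bulk MOZ-TIF2 than in fresh cells, from 10 and 29 counts in MOZ-TIF2. In DMSO single cells of the MOZ-TIF2 line Hmga2 stood at 4.49 CPM on day 1 and 12.9 CPM on day 5. Igf2bp2 (chr16:22059009-22163299) had no peak within 5 kb, the nearest lying 48958 bp away in the first list. Igf2bp1 (chr11:95957163-96005944) had its nearest peak 28958 bp away, in the second list, and Lin28b (chr10:45376617-45486314) had none within 50 kb. Igf2bp3 and Arid3a, the 2 genes with shared peaks, were also called higher against fresh cells, where 11.3% of all tested genes were. The share called higher among all genes with a shared peak was not computed, and a link between peaks and RNA was not tested.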

How the data were processed

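Gene expression was measured by strand-specific poly(A) RNA-seq in 18 bulk libraries and by 10x single-cell RNA-seq, and binding by ChIP-seq. The authors deposited 2 bulk tables of estimated counts per gene, normalised separately here, and UMI counts per gene and cell; Salmon 0.13.0, Cell Ranger 3.0.0 and Bowtie2 are named in the submitters' processing notes, without roles. The peak caller and the strand setting of the counting are not given in the sources used here. Peak lists give positions in GRCm38 without scores.

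Estimated counts were rounded to whole numbers. Genes were kept with edgeR's filterByExpr (15224 and 13375 genes), scaled by TMM, fitted over all groups of a table with the quasi-likelihood test (edgeR 4.0.16, R 4.3.3) and adjusted by Benjamini-Hochberg over all of them, and a call is an adjusted p under 0.05. CPM uses the TMM-scaled totals. Alternatives were DESeq2 1.42.0, other scaling, no filter, the compared groups alone, a replicate block and each library left out. The scripts were tested on simulated data.

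The replicate numbers come from the labels and pair the HOXA9 libraries alone: correlations of same-numbered benzarone and DMSO libraries were 0.385, 0.412 and 0.827. Replicates differed beyond sampling noise. UMIs were summed over cells with exact 95% intervals, no doublet caller was run and no cell was removed. Sequences and gene positions are from RefSeq GRCm38.p6. H3K9/14ac and input samples were not analysed here. The members and lists were chosen with earlier results of these data known. The rule for named genes took the 6 members, up to 4 called genes per list with the largest absolute log2 difference at 1 CPM or more in the higher group, of which part are printed, and up to 3 genes like each member. Igf2, the neighbours of Igf2bp3 and the day 5 list genes were chosen after their values were seen.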

Additional observations from a re-analysis of the deposited data

How the results depend on the processing

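Of the log2 differences of members, 140 of 150 kept their direction and their side of the threshold over the alternatives that kept every library. DESeq2 called Igf2bp2 in MOZ-TIF2 cells against fresh (-1.74) and differentiated cells (-1.63) and in the interaction (-3.35), which made 1 member called there, and did not call Igf2bp1 against differentiated cells (6.49). It called 1715 genes in the interaction and 14 in HOXA9 cells. With the replicate number as a block MOZ-TIF2 against fresh cells gave 2094 genes, without Hmga2 (-2.78), Igf2bp1 against differentiated cells read 7.20, not called, and HOXA9 cells gave 6 genes, or 20 with these libraries alone. The block changed no other call of a member. Same-numbered MOZ-TIF2 and fresh libraries correlated at -0.12, and a crossed pairing, chosen after seeing the data, gave 2327 genes without Hmga2 (-2.81). With the compared groups alone HOXA9 cells gave 1 gene, and 4 members were called in MOZ-TIF2 against differentiated cells, Lin28b among them. The near-zero Arid3a difference between differentiated and fresh cells was -0.0025 with RLE scaling, -0.0024 with DESeq2 and -0.0027 with these groups alone. The cause of these shifts was not tested.

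Leaving out each library in turn, genes called in MOZ-TIF2 against fresh cells ran from 374 to 3531 and members from 0 to 3, with Igf2bp3 at 5.09 to 6.39, Arid3a at 1.90 to 2.60 and Hmga2 at -3.72 to -2.10. Against differentiated cells it was 2411 to 4278 genes, with 2 members in each case and Igf2bp1, which depends on the prior count, at 6.96 to 7.22. Differentiated against fresh cells gave 1259 to 6869 genes and 0 to 2 members, with Hmga2 at -5.12 to -4.53, Igf2bp3 at -3.87 to -0.61, Igf2bp2 at -0.35 to 0.13 and Arid3a at -0.41 to 0.35. EYA1_HOXA9 against HOXA9 cells gave 1735 to 3486 genes in DMSO and 2211 to 3596 with benzarone, where Igf2bp2 ran from -1.56 to 0.23 and Arid3a from -0.60 to 0.019. Benzarone gave 2353 to 4266 genes in EYA1_HOXA9 cells and 0 to 1 in HOXA9 cells, where Arid3a ran from -0.25 to 0.46 and Igf2bp3 from -1.56 to 0.23. The interaction gave 408 to 1182 genes and 0 to 1 members, with Igf2bp2 at -4.50 to -2.71 and Igf2bp3 at -1.21 to 0.58. Where a pair lost a library, the lone sample was assumed to vary like the other groups.

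In single cells, ratios of thinned shares were 0.990 for Igf2bp3 and 0.498 for Hmga2 on day 3 against day 1, and 3.00 for Igf2bp2 and 0.923 for Igf2bp3 on day 5, where the mean over cells gave 0.814 for Igf2bp3. The number of members with a shared peak was 2 within 1 kb, 3 within 50 kb, 3 from the first list alone and 2 from the second. Depth limits Igf2bp1, Lin28b and Hmga2 in the bulk libraries, at 0 to 60 counts each. It also limits Igf2bp2, at 22.4 to 87.7 counts in the c-Kit+ libraries and 0 to 47 in the lines.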
